A study of Mus musculus with 16 samples.

Results

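The comparison here was of superior cervical ganglia (SCG) cocultured with pancreatic stellate cells (SCG+PSC) against ganglia cocultured with NIH 3T3 cells (SCG+MEF), across all protein-coding genes. Its members were the 15908 protein-coding genes that could be tested, of 21684 protein-coding genes and 56941 genes in the table, and the 7 libraries of these 2 groups, of 16 libraries in the series. SCG+PSC replicates 1 to 3 were set against SCG+MEF replicates 1 to 3, libraries with the same number were taken as pairs, and SCG+PSC replicate 4 was left out of the fit and is given beside it. The ganglia were explants from mouse pups at postnatal days 1 to 4, with 8 to 13 explants per well, and 10000 fibroblasts sat on an insert above them for 70 hours, so the partners shared medium and did not touch. The stellate cells were mPSC1, an immortalized line from murine pancreas that stands in for cancer-associated fibroblasts, and the 3T3 cells, called MEFs in the study, are a mouse embryonic fibroblast line that served as control fibroblasts. Each partner is therefore a single cell line, and the explants were pooled in each well. Ganglia cultured alone (SCG, n = 3) shared the model and are given for level. The comparison asks what the ganglion RNA showed with the pancreatic partner that it did not show with the other fibroblast.

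A superior cervical ganglion holds noradrenergic neurons wrapped in satellite glia, with Schwann cells, fibroblasts, endothelial cells and resident macrophages around them. The neurons have left the cell cycle, whereas the glia and stromal cells of a newborn ganglion can divide, and copying of DNA in S phase and the separation of chromosomes in mitosis each depend on a known set of genes. Interferon-stimulated genes are a second well-known set, switched on when a cell senses interferon. Injured neurons turn on transcription factors such as ATF3, and fibroblasts can reach neurons through secreted ligands. The libraries were bulk RNA, so more cells of a type and more RNA per cell cannot be told apart in any result below.

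Recovered reads on genes were 32013901 to 39197230 in the 9 libraries counted as checked. The labelled tissue carried its markers in all 10 ganglion libraries. The normalized count of Dbh, which makes noradrenaline, ranged from 21398 to 45933, that of the glial factor Sox10 from 10628 to 17004, that of the macrophage receptor Csf1r from 819 to 1349, that of endothelial Pecam1 from 86.1 to 628 and that of fibroblast Col1a1 from 46899 to 135431. SCG+PSC replicates 3 and 4 were more alike than any other pair within a group, at a chi-square of 7.54 per gene against 30.8 to 121 elsewhere. This is over the sampling noise of 1, but it cannot tell separate cultures from separate libraries of the same material. Replicates 3 and 4 were kept as separate samples, as labelled. SCG+PSC replicate 2 had the lowest normalized count of the X-linked Xist (2828) and the highest of the Y-linked Ddx3y (2382) of the 10, and the part of this in any result was not tested.

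The genes that were higher with stellate cells included genes of dividing cells and genes that respond to interferon. Those that were lower included secreted ligands and 2 of the 25 axon injury genes tested. Of 15908 protein-coding genes, 152 were higher in SCG+PSC and 29 were lower (limma with the replicate number as a block, where the adjusted p had to be 0.05 or less and the log2 change 0.5 or more in size), which is 0.955% and 0.182% of those tested. The median log2 fold change was 0.88 among the higher genes and -0.81 among the lower genes, and the adjusted p ran from 0.00827 to 0.0490. The calls rest on the pairing. Without the block, 0 genes were higher and 0 lower by limma, and 488 had an unadjusted p under 0.05 against 2352 with the block. With the block, edgeR called 171 higher and 30 lower, and DESeq2 273 and 93. Single libraries also mattered. Without SCG+MEF replicate 1 or SCG+MEF replicate 3, 0 genes passed in either direction (1907 and 2015 at an unadjusted p under 0.05), without SCG+PSC replicate 1 there were 4 higher and 7 lower, without SCG+MEF replicate 2 there were 99 and 35, and without SCG+PSC replicate 2 there were 242 and 56. Without SCG+PSC replicate 3 there were 127 and 20, of which only 56 and 13 were among the 152 and the 29. Of the 152 higher genes, 82 passed without SCG+MEF replicate 2 and 139 without SCG+PSC replicate 2. All 181 genes kept their sign in each of these fits.

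**Figure D1:**
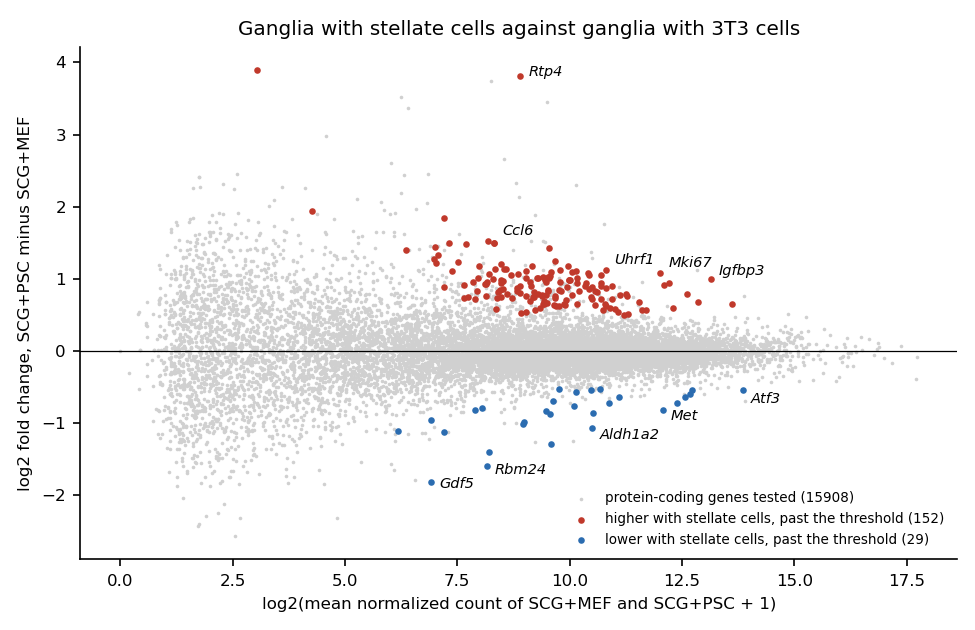
Each point is a protein-coding gene. The horizontal axis is the log2 of the mean normalized count of both groups plus 1, and the vertical axis is the log2 fold change of SCG+PSC over SCG+MEF from the block model. The 152 higher genes (red) and 29 lower genes (blue) are coloured, and Rtp4 (3.81), Igfbp3 (0.99) and Gdf5 (-1.81) are among the genes marked by name.

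Replicates 1 to 3 of both groups did not overlap for 29 of the 152 higher and 15 of the 29 lower genes. Over all protein-coding genes tested the groups did not overlap for 3.33% in the higher and 3.68% in the lower direction. In replicate 4, which the test did not use, the level lay above all 3 SCG+MEF libraries for 38 of the 152 and below all 3 for 21 of the 29 (72.4%), against 15.4% and 19.3% of all genes tested. The genes were chosen on the same SCG+MEF libraries and on SCG+PSC replicate 3, which replicate 4 resembles closely, so these counts are a description and no independent check.

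Genes of mitosis and of DNA replication made up 35 of the 152 higher genes and 0 of the 29 lower ones. Of 30 mitosis and spindle genes tested, 16 were higher and 0 lower, and of 38 DNA replication genes 19 were higher and 0 lower. Of all protein-coding genes tested, 0.955% were higher and 0.182% lower. SCG+PSC lay above SCG+MEF without overlap for 0 of the 30 and 1 of the 38, against 3.33% of all genes tested. The log2 fold change was above 0 in 30 of 30 and 38 of 38, with a median of 0.90 and 0.63, against a median of -0.02 over all protein-coding genes. The 2 lists were chosen with earlier results of these data known, so their direction is a description. Since the list of mitosis genes had the largest share of members past the threshold, the promoters of its 2 members with the largest fold changes are shown, followed by 2 DNA replication genes past the threshold and 2 of the most changed genes of interferon-induced families, in each case those with the largest fold change whose window held the motif of that set. The windows are from RefSeq on GRCm38.p6, 250 bases before to 50 after the start of the gene, 5′ to 3′ on the gene's strand. Capitals in the first 2 mark CCAAT boxes (CCAAT), bound by NF-Y, and the cell cycle homology region (TTTGAA), bound by the complex that times mitotic genes, both searched on either strand and added after the values were seen. Plk1 lies at chr7:122159185-122159484 and Mki67 at chr7:135716330-135716629.
Plk1: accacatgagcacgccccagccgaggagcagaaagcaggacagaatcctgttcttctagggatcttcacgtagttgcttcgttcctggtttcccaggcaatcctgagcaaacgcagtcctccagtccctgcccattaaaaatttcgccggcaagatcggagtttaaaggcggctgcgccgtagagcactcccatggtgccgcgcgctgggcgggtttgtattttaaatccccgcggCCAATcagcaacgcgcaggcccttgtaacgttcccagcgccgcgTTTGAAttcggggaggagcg
Mki67: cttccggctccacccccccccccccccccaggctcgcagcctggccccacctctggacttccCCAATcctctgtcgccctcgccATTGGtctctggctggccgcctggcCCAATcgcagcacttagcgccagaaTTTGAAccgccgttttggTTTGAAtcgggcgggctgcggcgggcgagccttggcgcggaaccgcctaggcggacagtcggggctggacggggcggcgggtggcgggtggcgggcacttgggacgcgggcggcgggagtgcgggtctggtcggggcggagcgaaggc
In the next 2, capitals mark an E2F site (TTTGGCGC or TTTCCCGC, either strand), the element through which E2F factors act on S phase genes. Mcm5 lies at chr8:75109259-75109558 and Mcm3 at chr1:20820263-20820562.
Mcm5: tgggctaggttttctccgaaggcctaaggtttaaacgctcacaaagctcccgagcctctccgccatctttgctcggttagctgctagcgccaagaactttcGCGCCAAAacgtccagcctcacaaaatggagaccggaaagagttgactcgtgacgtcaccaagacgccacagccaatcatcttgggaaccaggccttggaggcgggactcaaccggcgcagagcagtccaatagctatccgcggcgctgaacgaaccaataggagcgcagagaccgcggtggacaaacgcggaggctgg
Mcm3: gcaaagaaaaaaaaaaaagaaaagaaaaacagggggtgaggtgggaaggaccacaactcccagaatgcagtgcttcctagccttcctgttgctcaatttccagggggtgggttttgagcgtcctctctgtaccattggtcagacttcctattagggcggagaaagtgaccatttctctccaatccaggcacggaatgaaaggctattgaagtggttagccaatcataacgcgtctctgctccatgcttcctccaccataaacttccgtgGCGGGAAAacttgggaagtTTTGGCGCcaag
In the last 2, capitals mark an interferon response element (GAAANNGAA, either strand). Ifi211 lies at chr1:173912997-173913296 and Slfn5 at chr11:82951852-82952151.
Ifi211: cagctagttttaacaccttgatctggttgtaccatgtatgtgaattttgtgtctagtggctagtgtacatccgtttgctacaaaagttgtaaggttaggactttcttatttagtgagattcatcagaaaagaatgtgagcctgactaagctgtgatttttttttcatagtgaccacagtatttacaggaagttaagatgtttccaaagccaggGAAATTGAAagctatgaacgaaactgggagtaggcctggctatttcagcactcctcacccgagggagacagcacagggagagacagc
Slfn5: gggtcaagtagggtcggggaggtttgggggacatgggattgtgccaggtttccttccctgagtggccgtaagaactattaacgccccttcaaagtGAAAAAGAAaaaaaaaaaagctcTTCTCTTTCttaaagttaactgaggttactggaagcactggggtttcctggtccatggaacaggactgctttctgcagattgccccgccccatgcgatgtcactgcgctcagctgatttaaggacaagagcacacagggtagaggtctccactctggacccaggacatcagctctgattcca
Of the mitosis genes, 25 of 30 had a window in the RefSeq table. TTTGAA was in 19 of these 25 (76.0%) and in 14.7% of the 12358 tested genes with a window, and CCAAT was in 19 (76.0%) against 42.4%. E2F sites were in 11 of 33 DNA replication genes (33.3%) and in 0 of the 25 mitosis genes, against 3.06%. The interferon response element was in 24 of 37 interferon-stimulated genes (64.9%), against 8.64%. These are shares of whole lists, whether or not a member passed the threshold. Among the 118 higher genes that had a window, the interferon response element was in 16.9%, an E2F site in 8.47%, TTTGAA in 36.4% and CCAAT in 61.0%. Among the 20 lower genes with a window the shares were 0%, 0%, 5% and 40%. The xenobiotic response element (TNGCGTG) was in 6 of the 118 higher genes that had a window (5.08%) and in 4 of the 20 lower genes (20.0%), against 8.71%. TTTGAA, and TTTCCCGC read on the other strand, can each share letters with GAAANNGAA. A match says only that these letters lie in the window.

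Mki67, the usual marker of dividing cells (chr7:135291513-135318299, minus strand, GRCm39), had normalized counts of 1488, 4969 and 2119 in SCG+MEF replicates 1 to 3 and of 4024, 7027 and 5218 in SCG+PSC replicates 1 to 3, with 5141 in replicate 4. The groups overlapped because SCG+MEF replicate 2 was above SCG+PSC replicate 1, yet each pair rose, by 1.43, 0.50 and 1.30 on the log2 scale. Its log2 fold change was 1.08 (SE 0.20, adjusted p = 0.0321), and ganglia alone had 999, 4867 and 1852. Cdk1, the kinase that drives entry into mitosis, was at 448, 1731 and 746 with 3T3 cells and at 1374, 2454 and 1528 with stellate cells, with 1554 in replicate 4. Its log2 fold change was 1.05 (SE 0.19, adjusted p = 0.0321). Plk1, a kinase of spindle assembly, was higher by 1.09 (SE 0.20), Kif2c, a kinesin that takes microtubules apart, by 1.04 (SE 0.20) and Cdc20, which triggers anaphase, by 0.99 (SE 0.19).

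Among genes of S phase, Uhrf1, which carries DNA methylation to the new strand (chr17:56610275-56630489, plus strand, GRCm39), was at 634, 2199 and 836 in SCG+MEF and at 1955, 3134 and 1960 in SCG+PSC, with 2061 in replicate 4. It was higher in each pair, with a log2 fold change of 1.12 (SE 0.17, adjusted p = 0.0219), and SCG+MEF replicate 2 again lay above each stellate cell library except that of the same number. Mybl2, a transcription factor of cycling cells, was higher by 1.14 (SE 0.17), Mcm10, which helps to start the replication fork, by 1.13 (SE 0.19), E2f8, an E2F family repressor, by 1.13 (SE 0.23) and Pole, the leading strand polymerase, by 0.96 (SE 0.17). E2f8 was the one among these 5 whose groups did not overlap.

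The summed level of the mitosis list was 15283, 50284 and 23292 in SCG+MEF and 37996, 67752 and 43222 in SCG+PSC, with 44510 in replicate 4 and 11567, 48997 and 20258 in ganglia alone. Libraries numbered 2 were the highest of their group each time, and within each number SCG+PSC was the highest of the 3 conditions. The sums overlapped between SCG+MEF and SCG+PSC (two-sided exact permutation test, p = 0.3, where the smallest p for 3 against 3 is 0.1). This test does not use the pairing, so the spread between replicate numbers enters it. The medians of the list were 1.31, 0.43 and 0.90 in pairs 1 to 3 and 0.75 in replicate 4 against the SCG+MEF mean, and those of the DNA replication list were 0.94, 0.40, 0.63 and 0.56. The number of members past the threshold depended on single libraries. It was 30 mitosis and 23 replication genes without SCG+PSC replicate 2, 3 and 11 without SCG+PSC replicate 3, 4 and 14 without SCG+MEF replicate 2, and 0 of each without SCG+PSC replicate 1, SCG+MEF replicate 1 or SCG+MEF replicate 3. Without the block it was 0 of each.

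**Figure D2:**
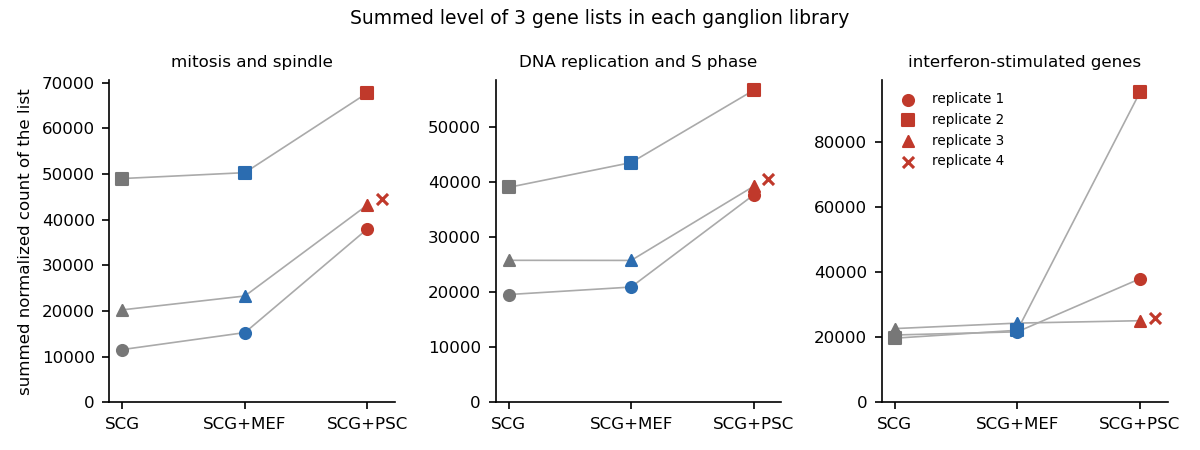
Each panel gives the summed normalized count of a gene list (linear axis from 0) in the 10 ganglion libraries, with the replicate number as the symbol and lines joining libraries of the same number. Mitosis genes were highest with stellate cells within each number (37996 against 15283 in number 1), and interferon-stimulated genes reached 95133 in SCG+PSC replicate 2 and 25064 in replicate 3.

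The stellate line itself divides, so its RNA in the ganglion wells was looked for. Of the genes at 500 or more in each library of the line alone and at most 5 in each ganglion library alone, 12 were found, among them the transcription factors Pax3, Nkx2-3, Irx1 and Emx2. The 12 summed to 47.0, 184, 12.8 and 11.1 in SCG+PSC replicates 1 to 4, to 12.3 to 21.3 in SCG+MEF and to 5.06 to 17.4 in SCG, and the highest of these was 1.05% of the line's mean. Most of the 2 high sums came from Oas3 and Gm4951, which respond to interferon (104 and 64.9 in replicate 2). Without these 2, a choice made after their values were seen, the other 10 summed to 6.05 to 15.2 in SCG+PSC, 5.26 to 7.10 in SCG+MEF and 1.01 to 9.22 in SCG, at most 0.120% of the line. The line was normalized in a separate table, and the part of its RNA in the mitosis and interferon results was not tested. RNA of 3T3 cells was not looked for, since no library of those cells alone was analysed here.

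Markers of other ganglion cells are given beside the dividing-cell genes. Of 20 glial genes tested 2 were higher and 1 lower, with a median log2 fold change of 0.02, of 22 fibroblast and matrix genes 0 were higher and 1 lower (median -0.03), and of 25 macrophage genes 0 passed (median -0.04). The summed fibroblast list ranged from 557435 to 740393 in SCG+MEF and from 599059 to 744683 in SCG+PSC, and the glial list from 178624 to 226579 and from 169235 to 208850. The endothelial list summed to 8193 to 9461 in SCG+MEF and 9485 to 10173 in SCG+PSC, without overlap (two-sided exact permutation test, p = 0.1, the smallest possible), while 0 of its 19 genes passed (median 0.40, with 16 of 19 above 0, and 0.41 in replicate 4) and the summed level of SCG+PSC replicate 4, at 9170, fell inside the SCG+MEF range. Of 10 neutrophil, 9 lymphocyte and 10 skeletal muscle genes in the table, 4, 3 and 6 had enough counts to be tested, and 0 passed. The part of any of these cells in the mitosis result was not tested.

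Genes that respond to interferon were high in SCG+PSC replicates 1 and 2 and near the SCG+MEF level in replicates 3 and 4. Of 50 interferon-stimulated genes tested, 4 were higher (8.00%, against 0.955% of all genes tested) and 0 lower. At an unadjusted p under 0.05 there were 40 in the higher direction and 1 in the lower. Over all 15908 genes tested there were 2352 in both directions together. The 40 genes share the same libraries, so they are not independent results. The median log2 fold change was 1.27, made of 1.11, 2.73 and 0.04 in pairs 1 to 3, and it was 0.27 in replicate 4. The summed level was 37938, 95133 and 25064 in SCG+PSC replicates 1 to 3 and 25908 in replicate 4, against 21656 to 24327 in SCG+MEF and 19705 to 22649 in ganglia alone. The SCG+PSC sums lay above all SCG+MEF sums (two-sided exact permutation test, p = 0.1, the smallest possible), by little in replicates 3 and 4. The count past the threshold was 36 of 50 without SCG+PSC replicate 3, 1 without SCG+PSC replicate 1 or SCG+MEF replicate 2, and 0 without SCG+MEF replicate 1, SCG+MEF replicate 3 or the block. The line alone, in its separate table, summed to 160050 to 543312 for these genes.

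Rtp4, a chaperone of receptors that interferon induces (chr16:23337811-23432972, plus strand, GRCm39), was at 45.6, 20.1 and 56.8 in SCG+MEF and at 540, 2064 and 140 in SCG+PSC, with 128 in replicate 4. The groups did not overlap, although the 4 stellate cell libraries spanned a wide range. Its log2 fold change was 3.81 (SE 0.75, adjusted p = 0.0401), and 26.6% of its exon bases lie in another gene model, Gm45338, so its reads are uncertain. Parp14, an ADP-ribosyltransferase of macrophage and interferon responses, was at 1116, 1280 and 690 with 3T3 cells and 1644, 3954 and 1339 with stellate cells, with 1481 in replicate 4. It was higher by 1.05 (SE 0.15, adjusted p = 0.0219) without overlap. Irf9, the DNA-binding part of the interferon-activated complex, was higher by 1.08 (SE 0.21, adjusted p = 0.0406) and Parp9, a relative of Parp14, by 1.18 (SE 0.24, adjusted p = 0.0477).

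Other genes of families that interferon induces were among the 15 most changed. Ifi211, of the PYHIN family of DNA sensors, was at 46.6, 70.1 and 42.6 in SCG+MEF and 149, 476 and 92.9 in SCG+PSC, with 83.7 in replicate 4, a log2 fold change of 1.84 (SE 0.30). The Schlafen genes Slfn5 and Slfn9 were higher by 1.53 (SE 0.31) and 1.43 (SE 0.21), Trim34a, of the TRIM family, by 1.49 (SE 0.29) and the helicase Helz2 by 1.10 (SE 0.22). In these genes replicate 2 was the highest of the 4, and replicate 4 lay inside the SCG+MEF range for Trim34a (112) and Helz2 (691). Ifih1 and Trim21 did not pass. Ifih1, a sensor of double-stranded RNA, differed by 1.40 (SE 0.42, adjusted p = 0.186) and Trim21, an antibody receptor of the cytosol, by 0.56 (SE 0.27, adjusted p = 0.465). MHC class I genes had a median of 0.15, with 0 of 20 past the threshold.

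**Figure D3:**
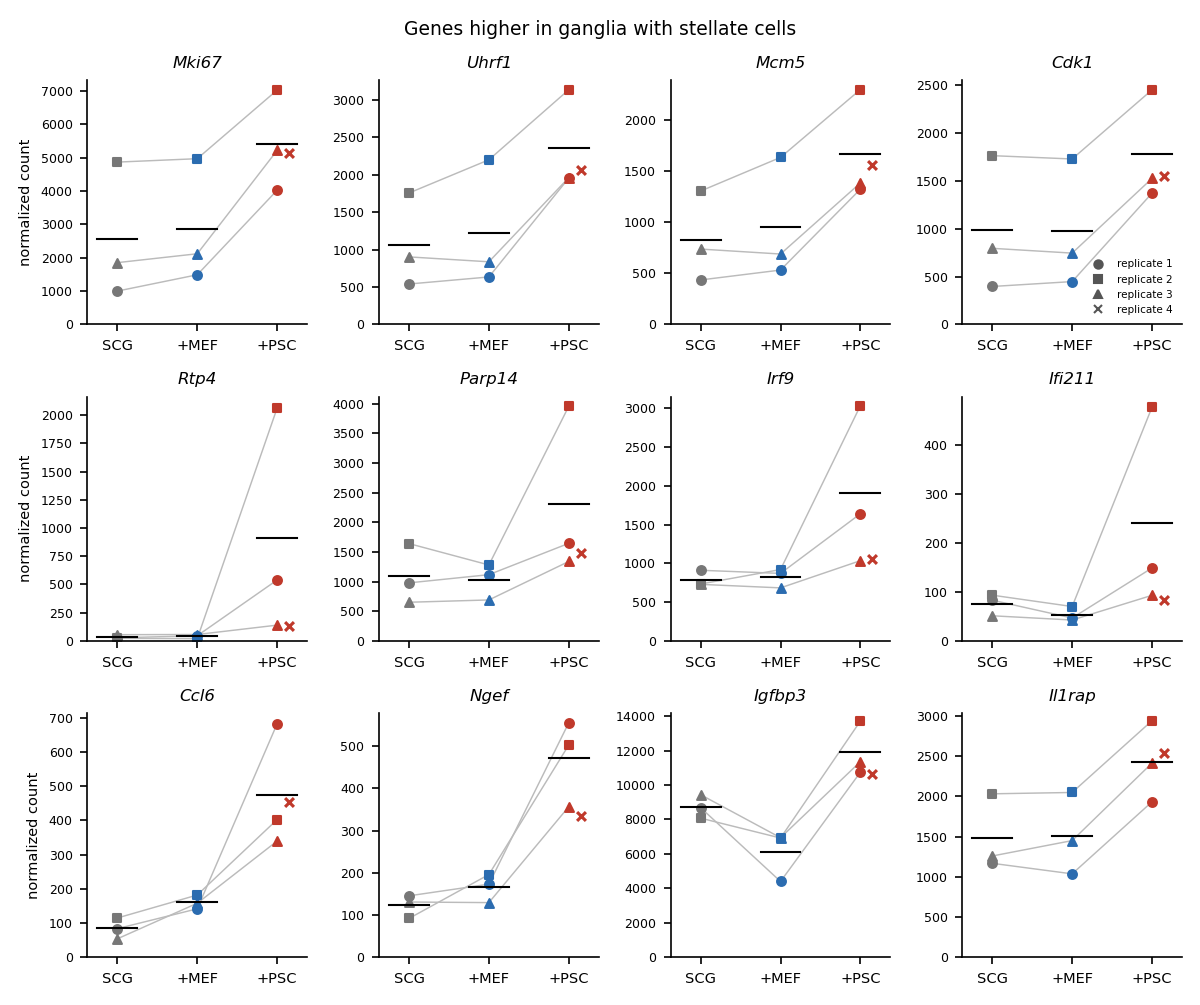
Normalized counts (linear axes from 0) of 12 genes past the threshold in ganglia alone, with 3T3 cells and with stellate cells, with the replicate number as the symbol, lines joining the same number and black bars for the mean of replicates 1 to 3. Number 2 was highest for the dividing-cell genes in each condition, as for Mki67 (4867, 4969 and 7027), while for Rtp4 it was high with stellate cells (2064) and not with 3T3 cells (20.1).

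Among secreted factors and receptors, Ccl6 was higher with stellate cells in each library. This CC chemokine of mouse myeloid cells (chr11:83478708-83483913, minus strand, GRCm39) was at 142, 182 and 158 in SCG+MEF and at 682, 402 and 340 in SCG+PSC, with 453 in replicate 4, and at 84.0, 115 and 54.3 in ganglia alone. The groups did not overlap, and the log2 fold change was 1.50 (SE 0.24, adjusted p = 0.0227). It was the 1 member past the threshold among 23 chemokines tested. Igfbp3, a carrier of insulin-like growth factors, was at 4404, 6924 and 6942 with 3T3 cells and at 10744, 13711 and 11356 with stellate cells, with 10664 in replicate 4. It was higher by 0.99 (SE 0.13, adjusted p = 0.0162), with the level of ganglia alone, 8077 to 9438, between them. Sostdc1, a secreted antagonist of BMP and Wnt signals, was at 227, 294 and 196 against 465, 484 and 457, with 480 in replicate 4, a log2 fold change of 0.99 (SE 0.13, adjusted p = 0.0168).

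Il1rap, the shared coreceptor of the IL-1 family, was at 1038, 2050 and 1452 in SCG+MEF and 1934, 2942 and 2415 in SCG+PSC, with 2540 in replicate 4. It was higher in each pair, by 0.72 in the fit (SE 0.10, adjusted p = 0.0169), while the groups overlapped, and it was the 1 of 20 genes of the IL-1 and NF-kB list past the threshold. Fosl1, an AP-1 subunit, was higher by 0.78 (SE 0.13, adjusted p = 0.0291), the 1 of 18 immediate early genes. Ngef, an exchange factor that acts behind Eph receptors in growth cones, was at 173, 196 and 130 against 555, 503 and 357, with 336 in replicate 4, and was higher by 1.49 (SE 0.20, adjusted p = 0.0168). Plekha4, a phosphoinositide-binding protein of Wnt signaling, was higher by 1.25 (SE 0.14, adjusted p = 0.00827), without overlap.

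For glia, Kcnj10, the potassium channel of satellite cells, was at 1256, 1120 and 888 in SCG+MEF and 1740, 1986 and 1629 in SCG+PSC, with 1612 in replicate 4. The groups did not overlap, with a log2 fold change of 0.72 (SE 0.09, adjusted p = 0.0162), and ganglia alone had 1570 to 1974. Fabp7, a fatty acid-binding protein of glia, was higher by 0.56 (SE 0.08, adjusted p = 0.0219). In these 2 genes the level with stellate cells was near that of ganglia alone and the level with 3T3 cells was below both.

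Of the lower genes, Gdf5 had the largest change. This ligand of the BMP family (chr2:155782943-155787287, minus strand, GRCm39) was at 276, 156 and 132 in SCG+MEF and at 71.0, 45.6 and 38.5 in SCG+PSC, with 54.5 in replicate 4 and 65.6 to 93.1 in ganglia alone. The groups did not overlap, and the log2 fold change was -1.81 (SE 0.20, adjusted p = 0.00827). Bmp4, a second ligand of that family, was at 765, 533 and 714 against 348, 351 and 303, with 415 in replicate 4, and was lower with stellate cells by -0.99 on the log2 scale (SE 0.19, adjusted p = 0.0353). Hhip, which binds hedgehog ligands, was lower (-1.11, SE 0.21, adjusted p = 0.0381), with replicate 4, at 76.7, inside the SCG+MEF range of 72.0 to 135. Vipr2, a receptor for the peptides VIP and PACAP, was also lower (-1.13, SE 0.22, adjusted p = 0.0365), with 60.5 in replicate 4. Gfra3, the receptor for artemin, was at 10261, 6484 and 5513 against 6136, 3923 and 4058, with 4706 in replicate 4, a log2 fold change of -0.64 (SE 0.10, adjusted p = 0.0219), and was the 1 of 17 neurotrophic genes past the threshold.

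Aldh1a2, which makes retinoic acid, was at 2807, 1363 and 1698 in SCG+MEF and 1236, 875 and 646 in SCG+PSC, with 1023 in replicate 4. It was lower in each pair without overlap, with a log2 fold change of -1.07 (SE 0.16, adjusted p = 0.0219), the 1 of 14 retinoid genes past the threshold. Met, the receptor for hepatocyte growth factor, was at 6236, 5322 and 4835 against 3298, 3635 and 2462, with 3087 in replicate 4, a log2 fold change of -0.81 (SE 0.15, adjusted p = 0.0363). Rbm24, an RNA-binding protein of splicing, was lower by -1.59 (SE 0.21), the dipeptidase Dpep1 by -1.02 (SE 0.14), the phospholipid transporter Abcb4 by -0.83 (SE 0.11), the matrix protein Adamtsl1 by -0.76 (SE 0.12) and lumican, Lum, by -0.64 (SE 0.13), with replicate 4 of Lum, at 2221, inside the SCG+MEF range. The heat shock protein gene Hspa1l (-0.96, SE 0.19), the microtubule protein gene Eml5 (-0.60, SE 0.09) and the transporter Abca8b (-0.53, SE 0.09) were also lower.

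Atf3 and Gadd45a, which injured neurons switch on, were the 2 of 25 axon injury genes past the threshold, and both were lower with stellate cells than with 3T3 cells. Atf3 (chr1:190902493-190950241, minus strand, GRCm39) was at 18144, 17356 and 17074 in SCG+MEF and at 12364, 12812 and 10978 in SCG+PSC, with 12559 in replicate 4 and 12661, 15239 and 11437 in ganglia alone. The 2 coculture groups did not overlap, and the log2 fold change was -0.54 (SE 0.08, adjusted p = 0.0219). Gadd45a was at 9021, 7964 and 6927 against 6046, 5906 and 4573, with 5419 in replicate 4 (log2 fold change -0.54, SE 0.08, adjusted p = 0.0219). The median of the whole injury list was -0.06, with 10 of 25 genes above 0 and a range of -0.54 to 1.20. At an unadjusted p under 0.05 by limma, 5 members were lower and 3 were higher. Of all protein-coding genes tested, 0.182% passed the threshold in the lower direction.

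**Figure D4:**
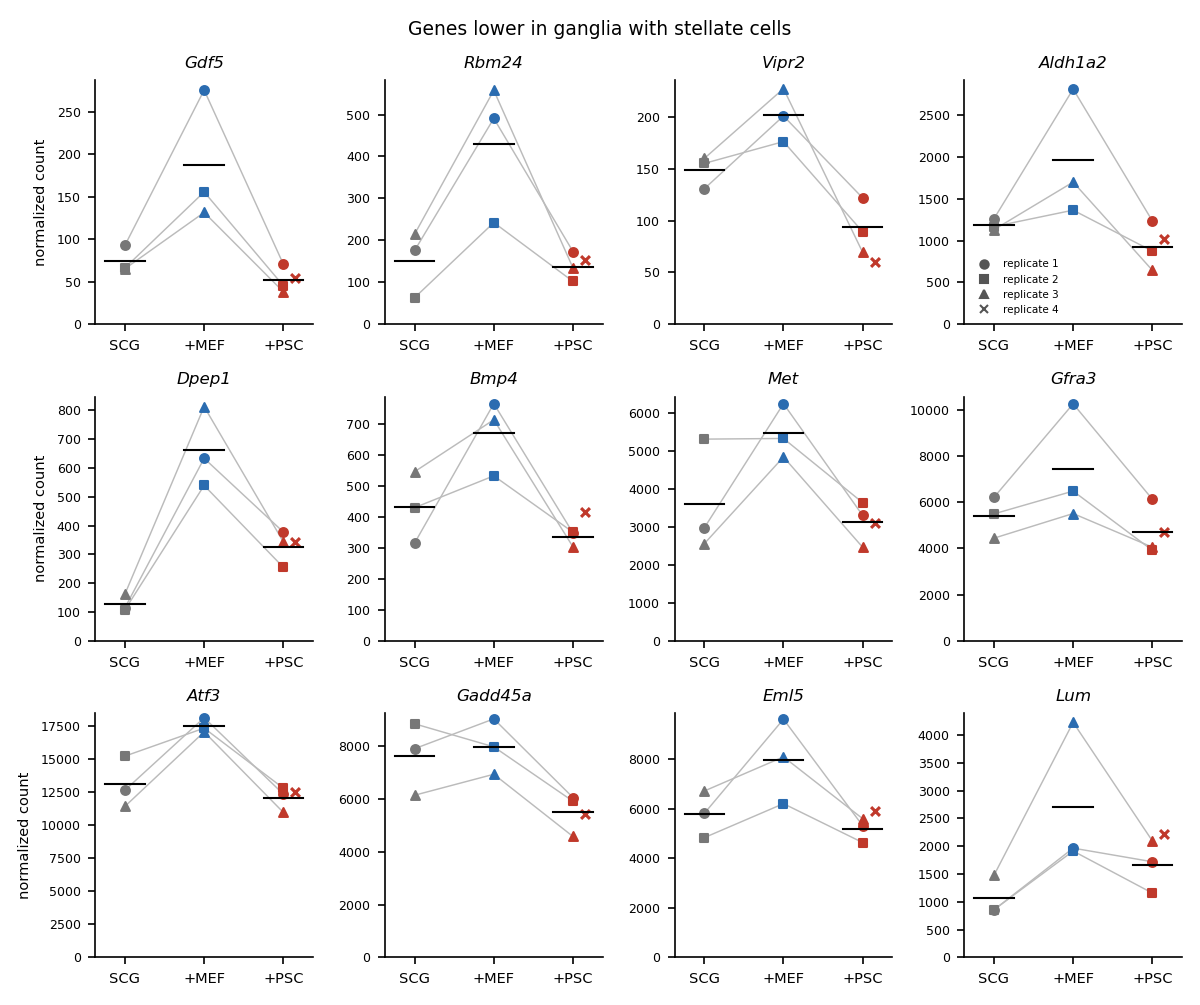
Normalized counts (linear axes from 0) of 12 genes lower with stellate cells than with 3T3 cells, drawn as for the higher genes. Gdf5 (38.5 to 71.0 against 132 to 276), Atf3 and Met did not overlap between the coculture groups, while Gfra3 and Lum did.

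Where SCG+PSC and SCG+MEF differ, either group can be the one that left the level of ganglia alone, and the values against SCG are given side by side, from the same fit and sharing the SCG libraries. The 152 higher genes had a median log2 fold change of 0.95 in SCG+PSC against SCG and of 0.08 in SCG+MEF against SCG. The 29 lower genes had medians of -0.33 and 0.43. For Mki67 the values were 1.34 and 0.27, for Ccl6 2.48 and 0.98, for Igfbp3 0.45 and -0.55, for Kcnj10 0.01 and -0.71, for Atf3 -0.11 and 0.43, for Rbm24 -0.01 and 1.58 and for Gdf5 -0.56 and 1.26. Dpep1, at 1.33 and 2.35, was above ganglia alone with either partner.

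Of the genes that the study names for these ganglia, Ccl6 and Il1rap passed the test, and several others did not overlap between the groups without passing it. The study names them as raised in coculture, and Ccr1, Ntm, Sema3a, Ccl6, Mmp12, Cyp1a1 and Il4ra among those raised by both partners. The test here, of one partner against the other, is a different comparison. Against ganglia alone, the log2 fold changes with stellate and with 3T3 cells were 2.09 and 1.28 for Ccr1, 3.16 and 2.68 for Cyp1a1 and 1.61 and 2.27 for Sema3a. Ccr1, the receptor for CC chemokines of this family, was at 92.3, 81.5 and 98.3 in SCG+MEF and at 184, 148 and 148 in SCG+PSC, with 137 in replicate 4, a log2 fold change of 0.81 (SE 0.21, adjusted p = 0.103) without overlap, and DESeq2 with the block gave it an adjusted p of 0.0394. Cyp1a1, the main target of the aryl hydrocarbon receptor, was at 1505, 2850 and 1923 against 2128, 3807 and 2779, with 301 to 338 in ganglia alone, and differed by 0.48 (SE 0.12, adjusted p = 0.111), while Cyp1b1, another target, differed by -0.51 (SE 0.13, adjusted p = 0.115). Ntm, a neural adhesion protein, differed by 0.61 (SE 0.17, adjusted p = 0.133, and 0.0112 by DESeq2). The protease Mmp12 ranged from 625 to 1366 in SCG+MEF and from 1741 to 1835 in SCG+PSC, with 2366 in replicate 4 (log2 fold change 0.76, SE 0.26, adjusted p = 0.252). The lectin Clec4n ranged from 91.1 to 101 and from 113 to 203, with 197 in replicate 4 (0.74, SE 0.26, adjusted p = 0.260). Ccl9 ranged from 147 to 214 and from 252 to 276, with 340 in replicate 4 (0.66, SE 0.27, adjusted p = 0.361). These 3 did not overlap either. Cxcl3 differed by 1.34 (SE 0.50, adjusted p = 0.301) and Pf4 by 0.83 (SE 0.39, adjusted p = 0.444). The guidance cue Sema3a was at 566, 247 and 241 with 3T3 cells and 190, 169 and 262 with stellate cells, with 307 in replicate 4 (log2 fold change -0.66, SE 0.33, adjusted p = 0.477). Cxcl10 was at 37.5, 61.3 and 265 against 57.6, 150 and 69.4, with a log2 fold change of -0.01 (SE 0.56) whose sign changed with the processing, and Il4ra at -0.02 (SE 0.09) likewise.

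**Figure D5:**
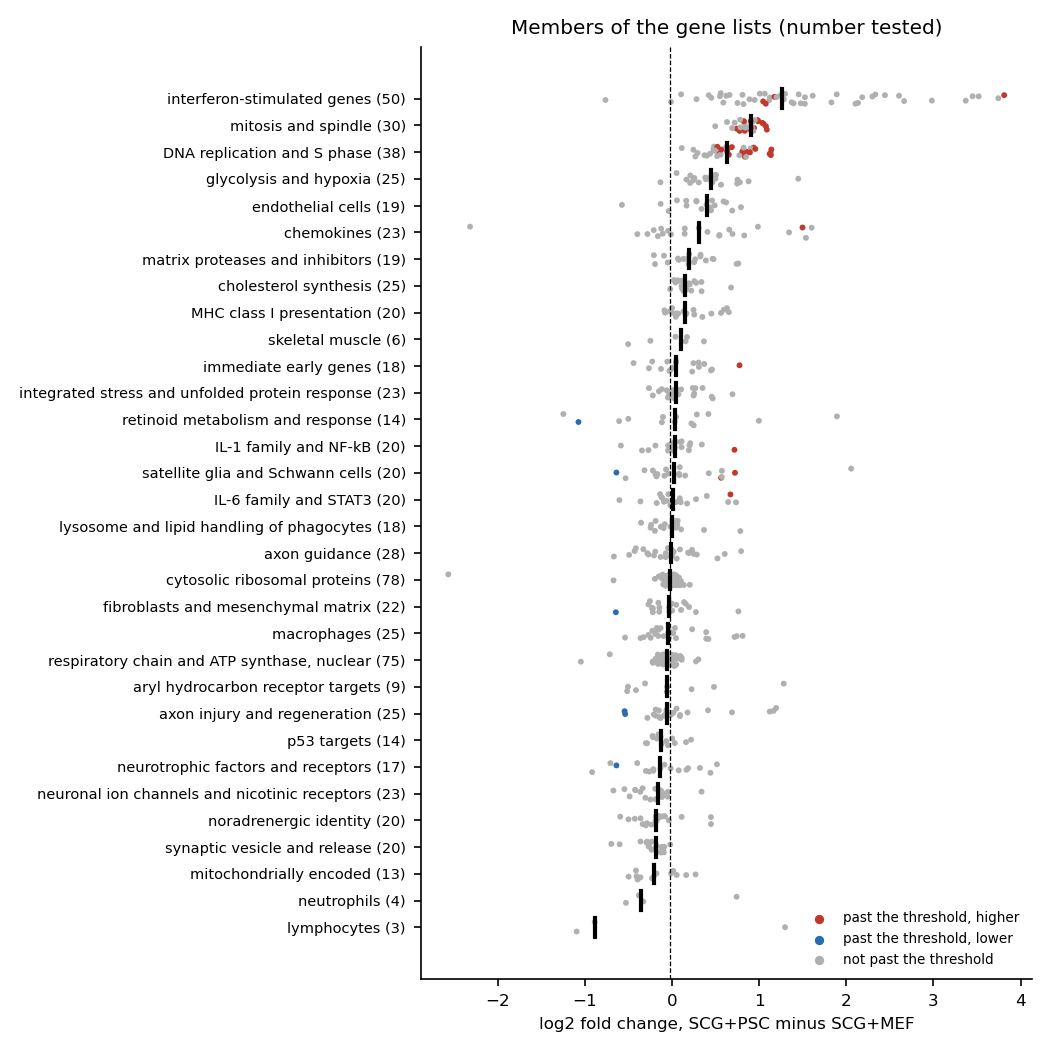
Each point is a tested member of a gene list, placed by its log2 fold change of SCG+PSC over SCG+MEF, with a black bar at the list's median and a dashed line at the median of all protein-coding genes (-0.02). Mitosis genes lie together from 0.50 to 1.09, interferon-stimulated genes spread from -0.76 to 3.81, and 0 members of the noradrenergic and synaptic lists are past the threshold.

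Genes of the noradrenergic, synaptic vesicle and ion channel lists did not pass the test. Of 20 noradrenergic genes 0 passed, with a median log2 fold change of -0.18 and 3 of 20 above 0, and of 20 synaptic vesicle genes 0 passed, with a median of -0.18 and 0 of 20 above 0. Of 23 ion channel and nicotinic receptor genes 0 passed (median -0.16). Slc6a2, the noradrenaline transporter, was at 30724, 24354 and 50206 in SCG+MEF and 26036, 20265 and 39390 in SCG+PSC, with 38253 in replicate 4 (log2 fold change -0.28, SE 0.11, adjusted p = 0.315). Syt4 and Syn2, proteins of vesicles, differed by -0.27 (SE 0.08, adjusted p = 0.188) and -0.36 (SE 0.13, adjusted p = 0.281). In replicate 4 the medians of the noradrenergic and the synaptic list against the SCG+MEF mean were 0.10 and -0.01. Of 28 axon guidance genes 0 passed, with a median of -0.01. Jak1, which sits behind IL-6 family receptors, was at 33825, 25564 and 24627 against 24301, 20467 and 20220 without overlap and did not pass (log2 fold change -0.36, SE 0.09, adjusted p = 0.0958).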

How the data were processed

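RNA was measured in bulk by stranded mRNA sequencing, 1 library per sample. Per the labels and the study's methods, the authors used STAR 2.7.10b for alignment to GRCm39, counted reads per gene on GENCODE M33 and scaled the counts by size factors (DESeq2 1.38.3 in R 4.2.2). The deposited values are a signal, normalized counts, with stellate and ganglion libraries in separate tables. Reads on genes were recovered from the common step of a library's values, whole within 0.1, and counted as checked in 9 of the 10 ganglion libraries. SCG+PSC replicate 4 was not counted as checked, although its low values were whole as well. Its recovered reads entered no model fit, but they were used for the chi-square between libraries of a group.

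Log2(normalized count + 1) was tested with limma 3.58.1 (R 4.3.3, trend) over replicates 1 to 3 of the 3 ganglion groups, with condition and replicate number as a block (4 residual degrees of freedom). Genes with a sum of at least 10 over the 9 libraries were tested (23491, of which 15908 were protein-coding), and p-values were adjusted over all of them (Benjamini-Hochberg). The study's model had experimental batch as a term, but no source ties a library to a batch, so the replicate number took its place. Deviations from the group means over 12859 genes with a mean of at least 50 correlated at 0.39 to 0.78 between same-numbered libraries of different groups and at -0.59 to 0.13 between others. The pairing thus rests on the numbers and on this check, and nothing says that the libraries came from separate litters. The p-values of the block model therefore measure the spread of these libraries that is left once the shift of each replicate number is taken out. In data simulated for this comparison (23126 genes) the block model recovered 100 of 100 genes changed 2-fold and 100 of 100 changed 3-fold and called 3 unchanged genes, and the model without a block recovered 48 and 99 of 100 and called 0 unchanged genes. The simulated libraries of the same number shared a shift per gene and had little other spread, which is what the block model assumes. The simulation therefore checks the code, and it cannot decide whether the block is right or how much is recovered in the real libraries.

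Alternatives were the model without the block, a separate block for SCG+PSC replicate 3, pseudocounts of 0.5 and 8, other filters, quantile normalization, edgeR 4.0.16 and DESeq2 1.42.0 on recovered reads, other sets of libraries, other adjustments and leaving out each of 6 libraries. Summed levels were compared by exact permutation. Genes were named if the study's text names them for these ganglia, if they were among the 15 per direction with the largest change, without overlap and with a mean of at least 50, or if they led a gene list, and not all of these are printed. Results for some genes are not reported here. The genes and lists were chosen with earlier results of these data known. Coordinates are from GENCODE M39 on GRCm39, a later release than the authors', and promoter windows from RefSeq on GRCm38.p6.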

Additional observations from a re-analysis of the deposited data

Results flagged for a closer look

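Of 46 named genes past the threshold, 10 had a SCG+PSC library far above the other 3, by Dixon's test at the 95% level for 4 samples, and chance alone flags about 1 in 20 independent groups. The 46 genes were chosen on these libraries and many rise and fall together, so their flags are not independent and cannot be counted against that share. In each of the 10 the library was SCG+PSC replicate 2. For interferon-related genes its normalized count was 3954 for Parp14, next to 1644 in the second highest library, 476 for Ifi211 (next 149), 621 for Trim34a (next 190) and 1836 for Slfn9 (next 782). For genes of dividing cells it was 2454 for Cdk1 (next 1554), 2048 for Plk1 (next 1091), 1799 for Cdc20 (next 1044), 1425 for Kif2c (next 810), 3134 for Uhrf1 (next 2061) and 1169 for Pole (next 787). The SCG and SCG+MEF libraries numbered 2 were also the highest of their groups for the summed mitosis list (48997 and 50284) but not for the summed interferon list of SCG+MEF (22135, against 24327 in replicate 3).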

How the results depend on the processing

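Without the replicate block, which ends the pairing, 0 genes were higher and 0 lower, as also with all 4 SCG+PSC libraries or SCG+PSC replicates 1, 2 and 4 without a block (0 and 0 each; 488, 628 and 459 genes at an unadjusted p under 0.05), and 0 mitosis, 0 replication and 0 interferon genes passed in each. A separate block for SCG+PSC replicate 3 left 2 mitosis and 10 replication genes and gave 36 interferon genes. The filter of at least 10 in 3 libraries gave 95 higher genes, 6 mitosis genes and 1 interferon gene. No call passed in all 6 fits that left out 1 library. DESeq2 gave 273 higher and 93 lower, with 25 mitosis and 12 interferon genes. The 2 groups alone gave 85 higher genes and 9 replication genes. Interferon genes numbered 2 with quantile normalization, 7 with edgeR and 7 with adjustment over protein-coding genes. Leaving out 1 library gave 0 to 242 higher and 0 to 56 lower genes, 0 to 30 mitosis, 0 to 23 replication and 0 to 36 interferon genes. The log2 fold change of Cxcl10 turned positive with replicate 3 in a block of its own (0.85), edgeR (0.0774), DESeq2 (0.17), all 4 SCG+PSC libraries (0.106) and replicates 1, 2 and 4 (0.24), and ran from -0.84 to 0.85 without single libraries. That of Il4ra was 0.0134 with quantile normalization and -0.14 to 0.068 without single libraries. The causes were not tested. The 181 called genes kept their sign in each fit that tested them. Depth limits 1700012B09Rik, named after its values were seen, which was at 0, 0 and 0 in SCG+MEF and 9.59, 21.3 and 12.8 in SCG+PSC, with 2.02 in replicate 4 and 0 to 3.81 in ganglia alone.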

Other observations

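Genes of glycolysis and of the response to low oxygen had a median log2 fold change of 0.45, with 24 of 25 above 0 and 0 past the threshold. The medians of pairs 1 to 3 were 0.38, -0.13 and 1.0, and that of SCG+PSC replicate 4 against the SCG+MEF mean was 0.36. Gapdh was at 44747, 55664 and 39999 in SCG+MEF and 55169, 55369 and 61876 in SCG+PSC (log2 fold change 0.31, SE 0.12, adjusted p = 0.328), and Pkm, of whose exon bases 23.5% lie in Gm49759, differed by 0.46 (SE 0.14, adjusted p = 0.183). Genes of cholesterol synthesis had a median of 0.15, with 24 of 25 above 0 and 0 past the threshold.

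Cytosolic ribosomal protein genes had a median of -0.02, with 0 of 78 past the threshold, and nuclear genes of the respiratory chain and ATP synthase had a median of -0.05, with 0 of 75. The 13 mitochondrially encoded genes had a median of -0.21, with 0 past the threshold. mt-Co1 was at 251847, 188787 and 286662 in SCG+MEF and 224904, 186774 and 143019 in SCG+PSC, with 132827 in replicate 4 (log2 fold change -0.39, SE 0.16, adjusted p = 0.353). Mitochondrial genes took 1.03% to 1.96% of the counts of a ganglion library, and the lowest shares were those of SCG+PSC replicates 4 (1.03%) and 3 (1.10%).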
